A study of Homo sapiens with 11 samples.

Results

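HDAC2 peaks that also carried acetylation of histone H3 at lysine 27 (H3K27ac) were compared with that mark in height and position in SK-N-MC cells. This is an established human cell line from Ewing sarcoma and carries the EWSR1::FLI1 fusion. A pair was an HDAC2 peak sharing at least 1 bp with an H3K27ac peak. There were 10259 such HDAC2 peaks of 20633, or 49.7%, matched to 9241 different H3K27ac peaks. The 9 chromatin immunoprecipitation lists of the study held 134925 peaks in all, 1 list each for HDAC2 and H3K27ac, for the NuRD subunits CHD4, MTA2 and RBBP4, for FLI1 and for H3K27me3, H3K4me3 and H3K4me1, and 2 input libraries were not analysed here. Every sample was this 1 line, labelled wildtype, with no treatment named, so the values below set targets side by side and not conditions. CHD4 was pulled down with a Flag antibody, and the sources used here do not say how the tag was put in. With 1 list per target there was no replicate and no test between samples. All intervals cover counting error over peaks only.

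HDAC2 is an enzyme that removes acetyl groups from histone tails. It works in several complexes, among them NuRD, which joins the deacetylases HDAC1 and HDAC2 to the nucleosome-remodelling ATPase CHD4, the scaffold protein MTA2 and the histone-binding protein RBBP4. H3K27ac is laid down by EP300 and CREBBP at active promoters and enhancers and is a mark that HDAC2 can remove, which makes the height of enzyme and mark at the same place a natural comparison. Acetyl-lysine is read by bromodomain proteins. In Ewing sarcoma the fusion protein, which an antibody to FLI1 can detect, binds many distal enhancers. Active promoters usually hold a nucleosome-depleted stretch at the start site, flanked by acetylated nucleosomes.

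Height is the fold enrichment at the summit, the highest point of a peak, as the authors' peak caller gave it. Because folds of an enzyme and of a histone mark are not on 1 scale, each peak was given its percentile rank within its own whole list, where 100 is the highest peak. The rank difference is the HDAC2 percentile minus the H3K27ac percentile, in percentile points, so a positive value means that HDAC2 stood higher in its list than the mark did in its own. The 50th percentile lay at a fold of 5.08 in the HDAC2 list and 7.45 in the H3K27ac list, and the 90th at 7.45 and 13.7. Pairs with a difference of at least 50 points were called HDAC2-leaning, those at −50 or lower H3K27ac-leaning, and those within 10 points even. Peaks at most 1 kb from either annotated end of any protein-coding gene are called near gene ends and were kept apart from all others, called distal.

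The line's label was checked on acetylation near gene ends. H3K27ac was present at 7 of 8 Ewing sarcoma genes (BCL11B, CCND1, LIPI, NKX2-2, NR0B1, PRKCB and STEAP1, but not CD99), at 1 of 5 blood genes (PTPRC), at 0 of 5 epithelial genes and at 0 of 4 skeletal muscle genes. The files give no read counts, so the depth of each list is unknown, and a site without a peak may be one that was missed.

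Promoters show the extremes of the balance in letters. The 6 windows given here run from 250 bases before to 50 bases after the start site, 300 bases each, from RefSeq on GRCh38.p14, and each holds the summit of an HDAC2 peak of a pair. DRAXIN, an axon guidance gene, and TTL, the tubulin tyrosine ligase gene, had high HDAC2 beside low acetylation. EWSR1, the gene that supplies the amino-terminal portion of the fusion, and NCOA5, a nuclear receptor coactivator gene, had low HDAC2 beside high acetylation. SMAD1, a mediator of BMP signalling, and CTDSP1, a small phosphatase gene, were high in both. Capitals mark GGGCGG or its reverse complement CCGCCC, the GC box, and ATTGG, the reverse complement of the CCAAT box. The windows lie at chr1:11691460-11691759 (+ strand, DRAXIN), chr2:112481906-112482205 (+ strand, TTL), chr22:29268018-29268317 (+ strand, EWSR1), chr20:46089913-46090212 (- strand, NCOA5), chr4:145481603-145481902 (+ strand, SMAD1) and chr2:218399096-218399395 (+ strand, CTDSP1).
DRAXIN: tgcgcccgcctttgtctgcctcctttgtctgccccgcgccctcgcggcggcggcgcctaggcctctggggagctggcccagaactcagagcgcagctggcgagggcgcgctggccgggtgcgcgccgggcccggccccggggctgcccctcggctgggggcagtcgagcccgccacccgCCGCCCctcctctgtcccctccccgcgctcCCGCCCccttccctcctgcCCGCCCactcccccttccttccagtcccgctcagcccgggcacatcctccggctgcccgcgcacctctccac
TTL: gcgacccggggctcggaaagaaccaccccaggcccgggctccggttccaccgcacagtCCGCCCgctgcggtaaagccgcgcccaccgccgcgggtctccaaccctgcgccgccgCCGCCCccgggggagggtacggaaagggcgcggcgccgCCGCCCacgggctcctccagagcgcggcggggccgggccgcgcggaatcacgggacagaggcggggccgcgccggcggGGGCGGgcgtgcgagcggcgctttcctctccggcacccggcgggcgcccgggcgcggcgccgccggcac
EWSR1: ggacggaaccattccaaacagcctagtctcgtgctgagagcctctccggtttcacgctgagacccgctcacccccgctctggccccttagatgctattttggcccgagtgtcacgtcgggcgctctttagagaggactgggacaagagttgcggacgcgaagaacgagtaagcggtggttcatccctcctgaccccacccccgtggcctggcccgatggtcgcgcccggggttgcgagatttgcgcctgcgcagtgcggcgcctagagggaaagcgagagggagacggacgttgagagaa
NCOA5: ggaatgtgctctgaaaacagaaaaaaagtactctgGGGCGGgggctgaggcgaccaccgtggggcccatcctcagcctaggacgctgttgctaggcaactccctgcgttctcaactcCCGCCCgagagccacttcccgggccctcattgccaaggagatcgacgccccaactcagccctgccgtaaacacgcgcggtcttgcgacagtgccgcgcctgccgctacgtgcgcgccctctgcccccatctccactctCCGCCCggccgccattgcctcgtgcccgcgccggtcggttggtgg
SMAD1: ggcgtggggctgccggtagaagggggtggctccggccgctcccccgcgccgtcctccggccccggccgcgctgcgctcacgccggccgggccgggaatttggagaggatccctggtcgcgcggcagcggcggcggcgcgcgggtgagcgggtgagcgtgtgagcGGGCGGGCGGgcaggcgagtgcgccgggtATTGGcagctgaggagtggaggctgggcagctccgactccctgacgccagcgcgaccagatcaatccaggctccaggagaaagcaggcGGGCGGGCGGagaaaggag
CTDSP1: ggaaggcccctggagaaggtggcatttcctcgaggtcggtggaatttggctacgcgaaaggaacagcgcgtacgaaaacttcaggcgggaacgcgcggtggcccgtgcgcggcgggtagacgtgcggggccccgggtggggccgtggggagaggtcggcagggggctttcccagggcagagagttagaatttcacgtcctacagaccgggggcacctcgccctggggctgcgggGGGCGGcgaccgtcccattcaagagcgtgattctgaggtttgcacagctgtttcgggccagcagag

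The DRAXIN window was 78.0% G and C with 3 GC boxes, and its HDAC2 summit, upstream of the start site, had a fold of 12.5, against an H3K27ac fold of 4.17. TTL was 82.0% G and C with 4 GC boxes, with an HDAC2 fold of 9.38 and an H3K27ac fold of 5.06. In the EWSR1 window none of the 7 motifs searched was present, 62.7% of bases were G or C, and the folds were 2.72 for HDAC2 and 23.6 for H3K27ac. NCOA5 had 66.3% G and C, 3 GC boxes, an HDAC2 fold of 2.97 and an H3K27ac fold of 24.0. SMAD1, at 75.3% G and C, had an HDAC2 fold of 8.49 and an H3K27ac fold of 20.3, with GC boxes in overlapping pairs and 1 CCAAT box. CTDSP1 had 66.0% G and C, 1 GC box, an HDAC2 fold of 8.42 and an H3K27ac fold of 18.3. GC boxes thus stood in windows of all 3 kinds.

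Over the 1500 promoter windows that held an HDAC2 summit of a pair, base composition moved with the balance. The 44 HDAC2-leaning windows had a median of 73.3% G and C and 36 CpG sites. The 242 even windows had 68.7% and 30, and the 435 H3K27ac-leaning windows 66.0% and 28. All 1500 had 67.7% and 29, and all 22049 windows of protein-coding genes in the table had 62.3% and 21. Spearman's correlation with the G and C share was 0.23 for the HDAC2 percentile, −0.0025 for the H3K27ac percentile and 0.17 for the rank difference, over 1500 windows. Base composition also bears on how well a fragment is amplified and sequenced, and its part in these values was not tested.

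Motifs were searched on both strands and a match is a description of the letters only. The GC box GGGCGG was in 84.1% of HDAC2-leaning windows (95% Wilson interval 70.6 to 92.1), 78.1% of even ones and 72.9% of H3K27ac-leaning ones (68.5 to 76.8), against 56.2% of all windows. The ETS-type motif CCGGAAGT was in 0 of 44 HDAC2-leaning windows, which allows a share of up to 6.82% by the limit of 3 counts and 8.03% by the Wilson interval, in 8.68% of even windows and in 14.5% of H3K27ac-leaning windows (11.5 to 18.1), against 5.30% of all windows. GCGCATGC, as in NRF1 sites, was in 0 of 44, 2.07% and 5.29% (3.55 to 7.81) in the same order, against 3.69% of all windows. CCAAT was in 20.5%, 32.6% and 28.7%, against 34.7% of all. TATAAA was in 2.27%, 1.65% and 3.45%, against 9.51% of all. CACGTG was in 9.09%, 12.4% and 11.0%, against 8.31% of all, and TGACGTCA in 2.27%, 3.72% and 2.30%, against 2.25%. The classes are parts of the 1500 windows with an HDAC2 summit of a pair, which differ from all windows themselves. Over these 1500, GGGCGG was in 75.8%, CCGGAAGT in 10.4% and GCGCATGC in 4.20%. CCAAT was in 29.2% of them, TATAAA in 3.00%, CACGTG in 12.1% and TGACGTCA in 2.80%. The GC box share of the 1500 lay inside the interval of the HDAC2-leaning windows.

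Near gene ends, 5208 of 8074 HDAC2 peaks (64.5%, 63.5 to 65.5) overlapped H3K27ac, against 5051 of 12559 distal ones (40.2%, 39.4 to 41.1). The reverse shares were alike, with HDAC2 at 61.7% of 8731 H3K27ac peaks near gene ends and at 41.4% of 12769 distal ones. Whether an HDAC2 peak carried acetylation varied little with its own height. With the HDAC2 list cut by height into 5 equal parts, the share with H3K27ac near gene ends was, from the lowest part to the highest, 65.5, 64.8, 65.5, 63.2 and 61.2%, and distally 44.1, 42.8, 39.1, 37.1 and 39.8%. The median HDAC2 fold was 4.67 with H3K27ac and 4.71 without it near gene ends, and 5.31 with it and 5.43 without it distally. HDAC2 peaks with the mark were wider, with a median of 566 bp against 414 bp without it near gene ends and 535 bp against 374 bp distally. Heights were close on either side of the overlap rule. Pairs sharing at most 100 bp had a median HDAC2 fold of 4.48 near gene ends and 5.19 distally, and peaks that missed an H3K27ac peak by at most 100 bp had 4.48 and 5.36.

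Acetylated HDAC2 peaks more often carried the other NuRD subunits. Distally, CHD4 lay on 62.4% of HDAC2 peaks with H3K27ac (61.1 to 63.8) and 41.7% of those without it (40.6 to 42.8), MTA2 on 67.0% and 44.5%, and RBBP4 on 58.0% and 38.1%. Near gene ends the shares were 24.6% and 15.5% for CHD4, 42.9% and 25.8% for MTA2, and 49.0% and 28.7% for RBBP4. FLI1 was on 14.3% of distal HDAC2 peaks with H3K27ac (13.4 to 15.3) and 3.61% of those without it (3.21 to 4.06). Peak width differs between these sets too, and its part in the shares was not tested. H3K4me3, a promoter mark, was on 34.4% against 13.9% distally, and H3K4me1, an enhancer mark, on 45.2% against 33.2%. The Polycomb mark H3K27me3 lay on 102 HDAC2 peaks, 72 near gene ends and 30 distal, and on 0 of the 10259 with H3K27ac. HDAC2 peaks without the mark were mostly far from it, with the nearest H3K27ac peak at a median of 28637 bp near gene ends and 42896.5 bp distally. Still, 593 of 2866 (20.7%) near gene ends and 670 of 7508 (8.92%) distally lay within 500 bp of one.

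The balance differed by location. Near gene ends the HDAC2 percentile had a median of 37.5 and the H3K27ac percentile one of 68.9, and the median rank difference was −23.4 (95% interval −24.8 to −22.1, quartiles −50.5 and 2.73). Distally the medians were 56.2 for HDAC2 and 61.9 for H3K27ac, and the difference was −2.48 (−3.58 to −1.13, quartiles −32.3 and 24.3). HDAC2 ranked above the mark in 1412 pairs (27.1%) near gene ends and in 2379 (47.1%) distally. The median near gene ends minus the distal one was −21.0 points. Zero depends on which peaks are ranked, since overlapping H3K27ac peaks stood above their own list's middle (median percentile 65.7 over all pairs) and overlapping HDAC2 peaks just below it (46.1). Ranked among overlapping peaks alone, the median was −9.18 near gene ends and 9.21 distally, which turns the distal sign and gives −18.4 points between the locations. Ranked by −log10 p this gap was −10.4 points, and under the other settings tried it was between −22.6 points (2.5 kb window) and −14.1 points (HDAC2 summit inside the acetylated peak).

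**Figure D1:**
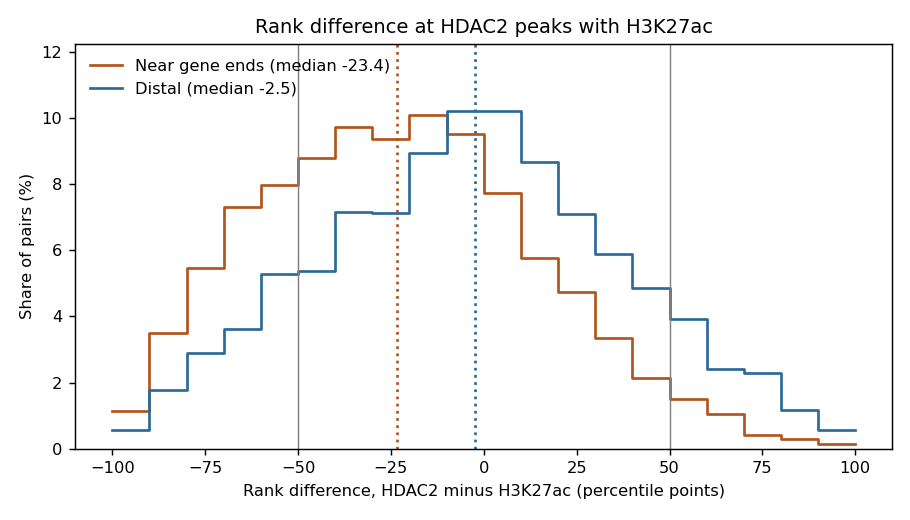
Rank difference, HDAC2 percentile minus H3K27ac percentile, in bins of 10 points, as the share of pairs near gene ends (brown) and distal (blue). Dotted lines are the medians of −23.4 and −2.48 points, and grey lines at 50 points either side bound the leaning classes.

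Knowing the height of one said little about the height of the other. Spearman's correlation between the percentiles was 0.06 over 5208 pairs near gene ends and 0.06 over 5051 distal pairs, which share library and peak caller within each list. The HDAC2-leaning class held 177 pairs near gene ends (3.4%) and 523 distally (10.4%). The H3K27ac-leaning class held 1322 (25.4%) and 713 (14.1%), and the even class 898 (17.2%) and 1031 (20.4%). These shares follow from the class limits and from which peaks are ranked, and are the background for the counts that follow. Under the other settings the HDAC2-leaning share was between 1.74% (50% of the HDAC2 peak covered) and 6.78% (ranks over overlapping peaks alone) near gene ends, and between 5.06% and 17.3% distally under the same settings. The distal order turned with ranks over overlapping peaks alone, at 17.3% HDAC2-leaning and 8.26% H3K27ac-leaning, and with each H3K27ac peak counted once, at 11.6% and 10.0%. H3K27ac peaks were narrow in the HDAC2-leaning class and wide in the H3K27ac-leaning class, at medians of 422 and 1006.5 bp near gene ends and 511 and 1850 bp distally. The rank difference had a Spearman correlation of 0.25 with HDAC2 width and −0.39 with H3K27ac width near gene ends, and of 0.26 and −0.44 distally.

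**Figure D2:**
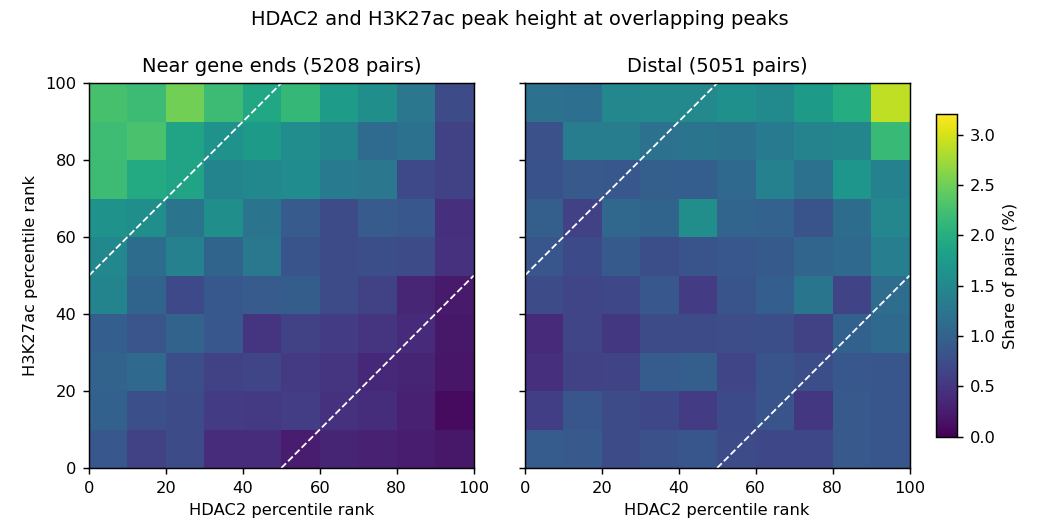
Pairs near gene ends (left) and distal (right) in cells of 10 by 10 percentile points, coloured by the share of pairs. Pairs below the lower dashed line were HDAC2-leaning and above the upper one H3K27ac-leaning. Pairs near gene ends crowd at low HDAC2 and high H3K27ac, and distal pairs in the corner where both are high.

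The difference near gene ends was below 0 on all 23 chromosomes with pairs, from −33.3 on chromosome 22 to −7.02 on chromosome 18. Distally it was below 0 on 18 of 23, from −12.0 on chromosome 17 to 14.6 on chromosome 18. Most pairs near gene ends were at starts. Of those on chromosomes of the promoter table, 4182 (83.7%) lay within 1 kb of a start site, with a median difference of −24.5, and 816 lay near another annotated end, with −21.5. H3K4me3 was on 98.7% of the pairs at starts and on 87.4% of the others.

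At promoters the enzyme and the mark peaked at different distances from the start site. The start used was the one nearest the HDAC2 summit, at most 1 kb from it, and both summits were measured from that start. HDAC2 summits are therefore closer partly by construction, and the size of that part was not tested. They lay a median of 49 bp downstream of it (41 to 55) and H3K27ac summits 176 bp downstream (170 to 181), over 3998 pairs. The quartiles were −184 and 176 bp for HDAC2 and −238 and 256 bp for H3K27ac. Within pairs, the H3K27ac summit lay downstream of the HDAC2 summit in 55.8%, so the medians do not give a typical offset. HDAC2 summits were within 100 bp of the start in 28.4% of pairs and H3K27ac summits in 4.80%. Both had a main crest downstream and a lower one upstream. The fullest 50 bp bin was 50 to 100 bp downstream for HDAC2, with 12.2% of summits, and 200 to 250 bp downstream for H3K27ac, with 15.2%. In the 50 bp just before the start lay 4.35% of HDAC2 summits and 0.475% of H3K27ac summits. At the 600 pairs with start sites on both strands nearby in the table, HDAC2 summits were within 100 bp of a start in 40.5%, against 26.2% of the 3398 with starts in 1 direction. With more starts nearby, a summit is likelier to be close to 1 of them by the rule alone, and that part was not tested.

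**Figure D3:**
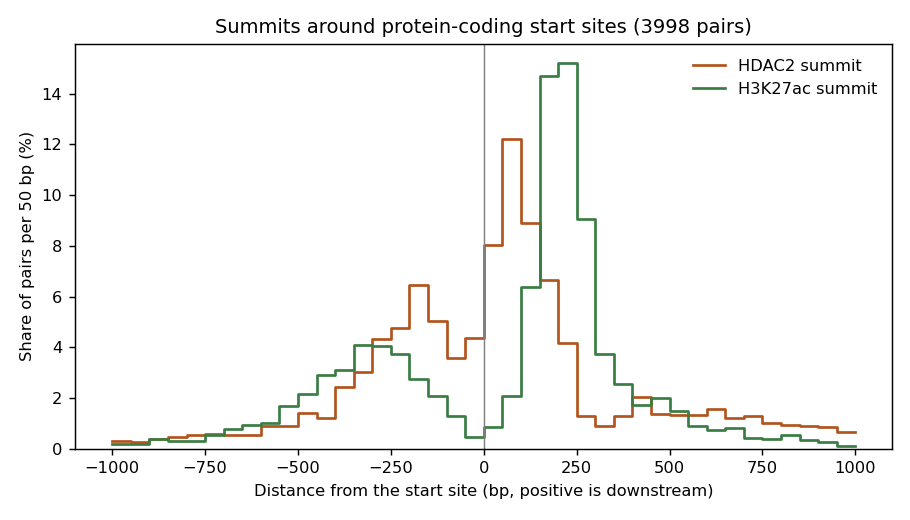
Share of HDAC2 summits (brown) and H3K27ac summits (green) in 50 bp bins around the protein-coding start site nearest the HDAC2 summit, over 3998 pairs. HDAC2 crests at 50 to 100 bp and H3K27ac at 200 to 250 bp downstream, and 0.475% of H3K27ac summits fall in the 50 bp before the start.

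Over all pairs the summits were a median of 234.5 bp apart near gene ends (227 to 244) and 340 bp apart distally (332 to 348). They were within 100 bp of each other in 23.9% of pairs near gene ends and 10.8% of distal pairs, and over 1000 bp apart in 3.13% and 9.05%. The HDAC2 summit fell inside the partner's peak in 71.0% of pairs near gene ends and 63.0% of distal pairs. In the distal HDAC2-leaning class that share was 31.2%, in the even class 64.4% and in the H3K27ac-leaning class 82.3%, in the order of the width of the acetylated peak.

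Many HDAC2 peaks bridged several acetylated peaks. An HDAC2 peak overlapped 2 or more H3K27ac peaks at 632 sites near gene ends (12.1%) and 940 distal sites (18.6%). The HDAC2 summit then lay in the gap between acetylated peaks at 213 of the 632 (33.7%, 30.1 to 37.5) and 504 of the 940 (53.6%, 50.4 to 56.8), in gaps with a median length of 250 bp and 269 bp. Counting only gaps of at least 150 bp, a length chosen after the data were seen, the distal share was 46.3%. Distal pairs with the HDAC2 summit in a gap more often had FLI1 than distal pairs with a single partner. FLI1 lay on 189 of the 504 (37.5%, 33.4 to 41.8), against 9.88% of distal pairs with a single H3K27ac peak. CHD4 was on 85.7%, MTA2 on 89.7% and RBBP4 on 80.6%, against 57.6%, 62.3% and 53.1%. The median HDAC2 percentile of distal pairs with several acetylated peaks was 74.3, against 52.0 with a single one. Their median HDAC2 width was 768.5 bp, against 496 bp, and a wider peak overlaps other peaks more readily. The part of height and width in these shares was not tested.

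Where another protein lay on a gap site, its summit was mostly in the same gap. Of the 189 distal gap sites with FLI1, its summit lay in the gap with HDAC2's at 181 (95.8%, 91.9 to 97.8). RBBP4 did so at 319 of 406 (78.6%), MTA2 at 344 of 452 (76.1%) and CHD4 at 271 of 432 (62.7%, 58.1 to 67.2). Near gene ends MTA2 did so at 118 of 140 (84.3%), RBBP4 at 104 of 148 (70.3%), CHD4 at 63 of 100 and FLI1 at 4 of 5. No such share was computed at other sites, so these have no background beside them. H3K4me3 was on 15.1% of distal gap sites, against 37.1% of distal pairs with a single partner. For the reverse arrangement, each HDAC2 peak was counted only at the H3K27ac peak sharing most bases with it. That leaves 9241 of the 10665 H3K27ac peaks that overlapped HDAC2, so these counts are not set against those above. Of the 9241, 8361 had 1 HDAC2 peak, 770 had 2, 87 had 3, 19 had 4 and 4 had 5 or more. Their median H3K27ac widths were 722, 1593.5, 3240, 6356 and 8513 bp.

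The distal classes differed in what else was bound. CHD4, the NuRD ATPase, lay on 73.8% of HDAC2-leaning pairs (69.9 to 77.4), 66.6% of even ones and 48.0% of H3K27ac-leaning ones (44.3 to 51.6). MTA2 followed the same order at 79.7, 72.0 and 53.9%, and so did RBBP4 at 67.1, 63.7 and 48.1%. All 3 were present on 56.6, 49.5 and 29.3%. H3K4me1 was on 57.7, 50.3 and 31.1%, and H3K4me3 ran the other way at 17.0% (14.0 to 20.5), 28.4% and 58.6% (55.0 to 62.2). Near gene ends the subunits fell in the same order, CHD4 at 40.7, 26.9 and 16.3%, MTA2 at 55.4, 43.3 and 38.2%, and RBBP4 at 59.3, 50.4 and 42.2%, while H3K4me3 was on 93.8, 96.9 and 98.0%. Median HDAC2 width also fell in this order, at 668, 595 and 426 bp distally and 883, 603.5 and 455 bp near gene ends. The classes differ in HDAC2 height by their definition. The part of width and of height in these shares was not tested.

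Distal pairs of the H3K27ac-leaning class were more often near start sites outside the protein-coding ends. Counting starts of genes of any kind in the RefSeq promoter table, 34.6% of these pairs lay within 1 kb of one (31.2 to 38.2), against 16.4% of even pairs and 10.1% of HDAC2-leaning pairs (7.74 to 13.1). Among pairs without such a start, H3K4me3 was on 42.2, 18.2 and 10.3% in the same order. The median rank difference was −18.6 for the 958 distal pairs near any start and 0.09 for the 3851 others. With H3K4me3 it was −19.1 (−21.5 to −16.6) over 1737 distal pairs. Without it, a division chosen after the data were seen, it was 3.76 (2.21 to 5.28) over 3314 distal pairs, which is the opposite sign to all distal pairs.

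FLI1 was more frequent at distal pairs high in both HDAC2 and H3K27ac than at pairs high in 1 of them. Among distal pairs, both were at or above the 75th percentile in 606 (12.0%), and FLI1 lay on 286 of these (47.2%, 43.3 to 51.2). It lay on 34 of 262 pairs with high HDAC2 and H3K27ac at or below the 25th percentile (13.0%, 9.44 to 17.6). It lay on 13 of 358 with low HDAC2 and high H3K27ac (3.63%, 2.13 to 6.11), and on 6 of 239 with both low (2.51%, 1.16 to 5.37). Over all distal pairs the share was 14.3%. In the highest of 5 equal parts of both lists it was 54.5% of 429 pairs. The share in the doubly high corner was between 38.8% and 53.9% under the other settings tried. Median HDAC2 width was 828, 661.5, 414.5 and 413 bp in the corners, in the order given above. A wider peak overlaps FLI1 more readily, and the part of width in these shares was not tested.

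Of these 4 corners the doubly high one also had the most CHD4. CHD4 was on 82.8% of them, on 71.0% where only HDAC2 was high, on 48.0% where only H3K27ac was high and on 54.0% where both were low. H3K4me3 was on 23.4, 17.9, 58.7 and 32.6% in the same order. The part of HDAC2 width in these shares was not tested either. HDAC2 summits of the doubly high pairs lay a median of 522 bp from the H3K27ac summit, in H3K27ac peaks of 2185.5 bp. The 723 distal pairs with FLI1 had a median HDAC2 percentile of 85.7 and H3K27ac percentile of 79.7, against 50.5 and 58.8 in the 4328 without it, and a rank difference of 2.63 (1.35 to 4.89) against −4.53 (−6.33 to −2.93). Near gene ends the difference went the other way, at −34.1 (−45.7 to −9.59) in the 64 pairs with FLI1 against −23.4 (−24.7 to −22.0) in the 5144 without it, and the intervals overlapped. FLI1 was on 64 of 5208 pairs there, and on 12 of the 325 that were high in both (3.69%).

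**Figure D4:**
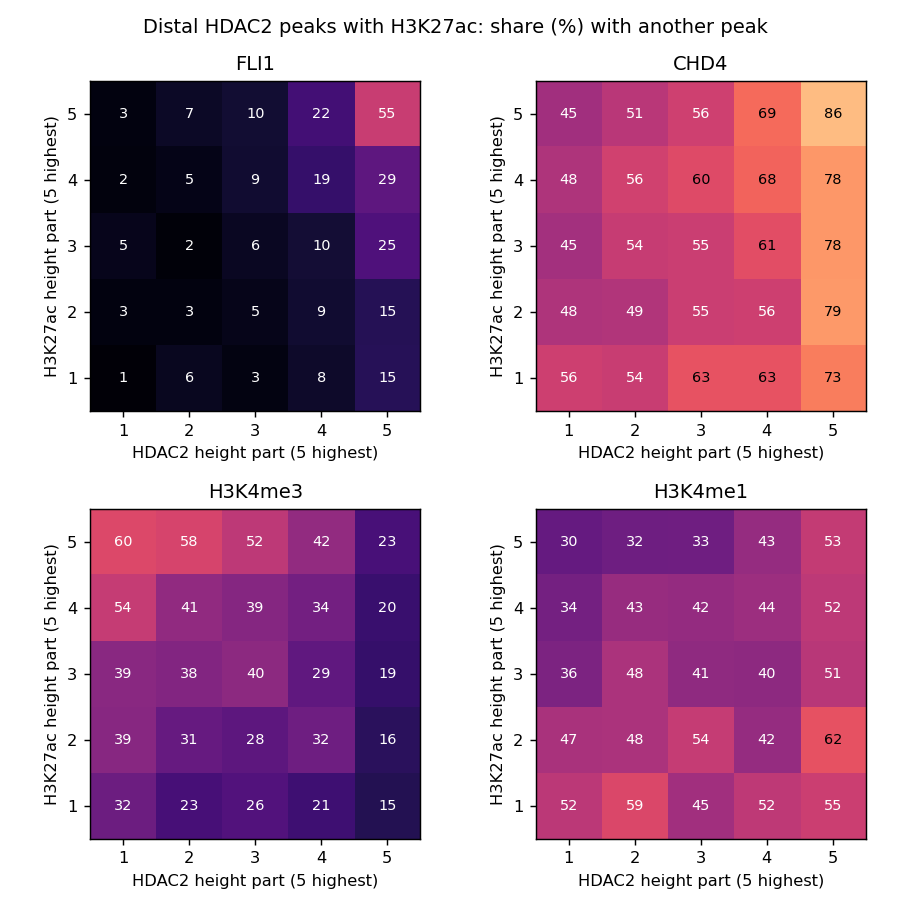
Share of distal pairs that carry FLI1, CHD4, H3K4me3 or H3K4me1, in percent, by height in the HDAC2 list (horizontal) and in the H3K27ac list (vertical), each cut into 5 equal parts with 5 the highest. FLI1 gathers in the top right cell, CHD4 grows from left to right, and H3K4me3 is most frequent at low HDAC2 with high H3K27ac.

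Single sites illustrate the ends of the range. The 5 distal pairs with both ranks highest all carried FLI1, CHD4, MTA2 and RBBP4. They were named by the nearest gene end, which need not be the gene they act on. Nearest to HTR1F, a serotonin receptor gene, at chr3:87547978-87548811 and 244 kb from its end, HDAC2 had a fold of 11.8 and H3K27ac 22.4. Within KIAA1217, at chr10:24389960-24391041, the folds were 10.5 and 25.9, and the HDAC2 summit lay in a gap of 334 bp between acetylated peaks. The pair nearest PDSS1, a gene of coenzyme Q synthesis, also had its HDAC2 summit in a gap, of 211 bp, with folds of 12.7 and 20.6. The pairs nearest AKAP7, a kinase anchoring gene, and RAD51B, a recombination repair gene, had HDAC2 folds of 10.5 and 9.82 and H3K27ac folds of 20.4 and 22.1. At RAD51B the site was 1.42 kb from the gene's end. Of these 5, 4 had H3K4me1 and the one nearest PDSS1 had H3K4me3.

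The distal HDAC2-leaning extremes were more mixed. The pair nearest PTK2, the focal adhesion kinase gene, had an HDAC2 fold of 10.5 and an H3K27ac fold of 3.80, with the HDAC2 summit in a gap of 1140 bp. The pair nearest CRYZL2P-SEC16B had folds of 13.0 and 4.10 and a gap of 949 bp. Both carried FLI1 and all 3 other subunits. At GLI2, a Hedgehog pathway transcription factor gene, the site lay inside the gene with folds of 9.93 and 3.80, and none of CHD4, MTA2, RBBP4 and FLI1 had a peak there. The pairs nearest CSMD3 and KCNU1 had all 3 subunits and no FLI1, with HDAC2 folds of 9.12 and 9.27 and H3K27ac folds of 3.42 and 3.80. In the order given, the H3K27ac −log10 p of these sites was 15.5, 16.4, 11.1, 9.81 and 11.1, where the list's smallest was 9.02. The PTK2, CSMD3 and KCNU1 pairs lay on chromosome 8, as did the H3K27ac-leaning NCOA2 pair given below. The 241 distal pairs of chromosome 8 had a median H3K27ac percentile of 42.9, against 61.9 over all distal pairs, and a median rank difference of 6.74.

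The distal H3K27ac-leaning extremes lay within DYRK1A, a kinase gene, IGF2BP2, an RNA-binding protein gene, NCOA2, a nuclear receptor coactivator gene, and STARD13, and near FRMD8. Their HDAC2 folds were 3.02, 3.00, 2.78, 3.16 and 3.01 in that order and their H3K27ac folds 26.2, 23.4, 20.0, 19.8 and 22.2. The HDAC2 −log10 p was 11.5, 12.5, 10.0, 16.9 and 12.0 in that order, where the list's smallest was 9.01. All but the one near FRMD8 had H3K4me3, and 0 of the 5 had FLI1. The DYRK1A and IGF2BP2 sites were 1.29 kb and 1.12 kb from a gene end, just past the 1 kb limit.

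Near gene ends the HDAC2-leaning extremes were at ATOH8, a basic helix-loop-helix factor gene, at the shared region of MAD2L2, a checkpoint and DNA repair gene, and DRAXIN, and at GFOD1, HHIPL2 and LMO7. HDAC2 folds were 12.3, 12.5, 10.4, 9.16 and 9.23 and H3K27ac folds 3.95, 4.17, 4.05, 3.99 and 4.17. The −log10 p of these H3K27ac peaks was 11.8, 10.9, 12.4, 10.7 and 10.9, near the list's smallest of 9.02 (median 25.7). MTA2 was on all 5 and CHD4 on the HHIPL2 site alone. The H3K27ac-leaning extremes were at RHBDD3, whose promoter region is that of EWSR1, at NCOA5, at ATXN2L, an RNA-binding protein gene, at EIF3A, a translation initiation factor gene, and at STK40, a kinase gene. Their HDAC2 folds were 2.72, 2.97, 2.87, 2.94 and 3.07 and their H3K27ac folds 23.6, 24.0, 21.4, 18.6 and 19.2, all 5 with H3K4me3 and 0 with CHD4. The −log10 p of these HDAC2 peaks was 12.8, 11.2, 11.0, 12.6 and 15.1, where the list's smallest was 9.01 and its median 20.9. High in both were XG, a red cell surface antigen gene beside CD99, with folds of 12.2 for HDAC2 and 18.6 for H3K27ac, GOLPH3, a Golgi protein gene, with 8.95 and 18.9, NSMAF with 9.03 and 17.2, CACNA1I, a calcium channel gene, with 8.60 and 21.0, and SMAD1. XG and CACNA1I had FLI1, all 3 other subunits and H3K4me1, and no H3K4me3.

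Of 20037 protein-coding genes, 5291 (26.4%) had a pair within 1 kb of an annotated end, and the median rank difference of each gene's strongest HDAC2 peak was −20.7. HDAC2 ranked above the mark at 1529 (28.9%) of these 5291 genes, so most genes of any kind lay on the H3K27ac side. An HDAC2 peak alone or with the mark lay near 7817 genes and an H3K27ac peak near 7863 (39.2%). Histone deacetylase genes had a pair at 7 of 16, with HDAC2 ranked higher at 0 of the 7 and a median of −54.3. HDAC2 sat on its own gene with a fold of 4.13, against 15.5 for H3K27ac and a difference of −73.0. HDAC5 was lowest at −82.4 and HDAC7 highest at −14.8. Acetyl-lysine reader genes had a pair at 8 of 12, with HDAC2 ranked higher at 0 of the 8 and a median of −41.1, from BRD2 at −89.5 to BRPF1 at −22.8.

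Acetyltransferase genes had a pair at 4 of 12, with a median of −13.4, namely HAT1 at 17.5, KAT6A at 16.8, KAT6B at −43.6 and NCOA3 at −74.3. EP300 and CREBBP, the main writers of the mark, had H3K27ac and no HDAC2 peak near an end. NuRD genes had a pair at 5 of 15, with a median of −25.9, namely MTA1 at 17.9, CHD3 at −14.1, GATAD2B at −25.9, RBBP4 at −35.9 and HDAC2 at −73.0. SIN3 and CoREST genes, which encode other partners of HDAC2, had a pair at 10 of 15 and a median of −11.6, with ING2 at 55.6 and ING1 at −75.3. RCOR1, the CoREST scaffold gene, was high in both, with an HDAC2 fold of 7.74 and an H3K27ac fold of 32.5.

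Among ribosomal protein genes, H3K27ac was near an end of 24 of 24 and HDAC2 near 8. HDAC2 ranked higher at 0 of the 6 with a pair, beside 28.9% over all genes, and the 6 differences ranged from −84.1 at RPS12 to −46.7 at RPL6, with a median of −68.5. Cell cycle and replication genes had a pair at 16 of 24 with a median of −46.6, from −86.9 at CDK4 to 36.2 at PCNA. CDK4, a cell cycle kinase gene, had an HDAC2 fold of 2.39 and an H3K27ac fold of 12.7, and PCNA, the replication clamp gene, had 6.01 and 6.51.

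Genes that the fusion is known to activate had a pair at 16 of 22, with a median of −20.3, near that of all genes. They ran from HOXD13 at 26.4 to PPP1R1A at −72.1. NR0B1, a fusion target, had an HDAC2 fold of 5.03 and an H3K27ac fold of 9.91 and a difference of −25.0. CCND1, the cyclin D1 gene, had 6.50 and 13.5, and EZH2, a Polycomb enzyme gene, 7.69 and 20.8. FLI1 lay on 0 of the 16 peaks, beside 72 of 5291 (1.36%) over all genes with a pair, and CHD4 on 8, beside 1251 (23.6%). Genes known to be repressed by the fusion had a pair at 8 of 19, with a median of −0.70. Of the 8, 4 had HDAC2 ranked above the mark, beside 28.9% over all genes, CAV2 at 62.6, FOXO1 at 52.1, TNC at 30.6 and IER3 at 5.22, and FN1, the fibronectin gene, was lowest at −69.9. FOXO1, a growth-restraining transcription factor gene, had an HDAC2 fold of 9.12 and an H3K27ac fold of 7.09.

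Immediate early genes, which respond to growth signals, had a pair at 10 of 20 and a median of −6.73. FOSL2 had the highest difference of any listed gene, 82.0, with an HDAC2 fold of 7.16 and an H3K27ac fold of 4.49. JUNB, at 54.6, had 5.76 and 5.08, and JUN was at 32.3. MCL1, a survival gene, was lowest at −63.6. Neural genes had a pair at 6 of 19 and a median of −18.1, with MAPT, the tau gene, at 48.0 with folds of 8.96 and 7.36, and POU3F2, a neural transcription factor gene, at −41.7. The lists are short, so these medians are descriptions of a few genes each.

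**Figure D5:**
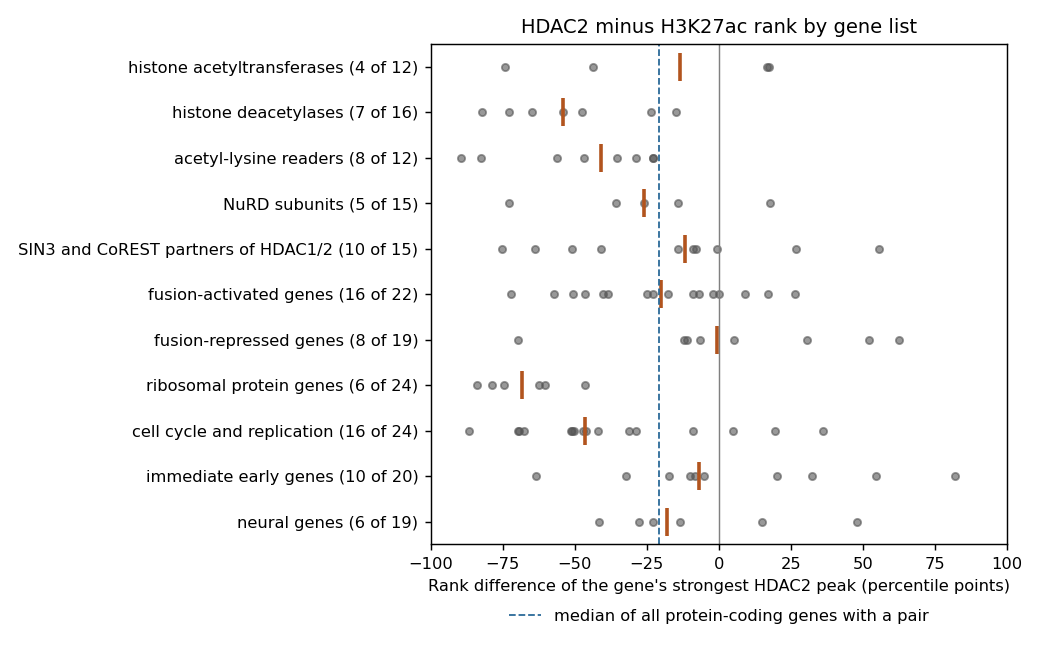
Rank difference of the strongest HDAC2 peak with H3K27ac of each gene (grey points) by list, with list medians (brown bars). Numbers in brackets count genes with a pair of all genes listed, and the dashed line is the median of −20.7 over all 5291 genes with a pair.

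The other NuRD subunits showed a similar split by location against H3K27ac, each ranked within its own list. Median differences were −23.4 near gene ends and −2.48 distally for HDAC2, −35.5 and −3.79 for CHD4, −18.0 and −8.33 for MTA2, and −33.3 and −7.38 for RBBP4. Distal pairs had Spearman's correlation of 0.06 for HDAC2, 0.13 for CHD4, 0.18 for MTA2 and 0.10 for RBBP4, and summit distances of 340, 333, 352 and 349 bp. The share of peaks with H3K27ac was 64.5% near gene ends and 40.2% distally for HDAC2, 60.6 and 42.9% for CHD4, 67.1 and 45.0% for MTA2, and 66.5 and 40.5% for RBBP4. The share of pairs at 50 points or more was largest for HDAC2 distally, at 10.4%, where CHD4 had 7.87%, MTA2 5.99% and RBBP4 7.45%. Near gene ends it was largest for MTA2, at 4.69%, where HDAC2 had 3.40%, CHD4 1.84% and RBBP4 1.42%. The lists differ in length, with 20633 peaks for HDAC2, 13288 for CHD4, 13462 for MTA2 and 13725 for RBBP4. The smallest −log10 p was 7.01 for RBBP4 and 9.01 for HDAC2. The part of these differences was not tested. All 4 comparisons share the H3K27ac list.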

How the data were processed

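Groups follow the labelled targets, 9 in SK-N-MC cells with 1 list each, and the 2 inputs were not used here. The submitters' processing notes name, in no stated order, bedtools 2.27.1, BWA 0.7.17, deepTools 3.2.1, FastQC 0.11.7, SAMtools 1.9, Trimmomatic 0.36 and the build GRCh38. Peaks carry MACS2 in their deposited names, but the version, control library and any pooling were not given in the sources used here. Each deposited peak has a fold enrichment, a ratio over local background computed by the authors' peak caller, a −log10 p and a summit offset, the other value used here, and these rank peaks only within a list. The smallest deposited −log10 p was 9.01 for HDAC2 and 9.02 for H3K27ac. No read counts were given, so depth is unknown.

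Positions were made 1-based. An HDAC2 peak was paired with the H3K27ac peak sharing most bases (at least 1 bp). Percentile ranks were taken over each whole list. In 2 pairs the deposited H3K27ac summit lay outside its peak, and they were left out of summit distances. Genes (20037, RefSeq, GRCh38.p14, no strand) gave ends within 1 kb. Start sites, strands and letters came from 34943 RefSeq promoter windows of 300 bases, which leave out chromosome 8. Peak sequences beyond promoters were not used here. Python 3.11.15, numpy 2.4.6, pandas 2.3.3 and SciPy 1.17.1 were used. Pairing was tested on simulated peaks. Intervals are 95% Wilson or order-statistic intervals.

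Named sites were, by location, the 5 pairs of largest and of smallest rank difference and the 5 of highest lower percentile, 1 per H3K27ac peak and nearest gene, plus the extremes of each list and members of small counts. EP300, CREBBP, RCOR1, NR0B1, CCND1, EZH2 and JUN were named after their values were seen. Pairs, the 11 lists of genes (198 entries, each found in the gene table) and rules were chosen with earlier results of these data known. Alternatives were other ranks, partners, overlaps, peak thresholds and windows.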

Additional observations from a re-analysis of the deposited data

How the results depend on the processing

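No paired analysis was possible because each target had 1 list, and no replicate could be left out. The number of pairs was 7068 to 10259 under the alternatives, within 1.5 times of 10259. Where a value moved, the cause was not tested unless the construction shows it. The rank difference was −13.6 near gene ends by −log10 p, with 10.4 points between the locations (near gene ends minus distal, −10.4). With at least 50% of the HDAC2 peak covered it was −30.1 near gene ends and −12.1 distally (−18.1 between them). With the HDAC2 summit inside the acetylated peak it was −26.2 and −12.1 (−14.1 between them). With 50% covered, pairs whose acetylated peak is shorter than 50% of the HDAC2 peak drop out by construction. The widths of pairs dropped under either setting were not computed. Requiring −log10 p values of 15 or more it was −21.0 and −0.978. With windows of 500 bp and 2.5 kb the distal value was −5.02 and −0.585 (−17.7 between locations at 500 bp), and with the partner of highest fold −4.33. Counting each H3K27ac peak once gave −19.8 near gene ends and the opposite sign distally, 1.35. Ranks over overlapping peaks alone gave −9.18 and 9.21 (−18.4 between them), the distal sign being turned by recentring. Distal pairs without H3K4me3, an alternative chosen after seeing the data, gave 3.76.

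Summit distances near gene ends were 245 bp with the highest partner, 198 bp with 50% covered, 159 bp with the summit inside, 221 and 247 bp with the smaller and larger window and 219 bp with each H3K27ac peak once. Distally they were 352 bp, 315.5 bp and 292 bp under the first 3 of these, 359 bp with the higher −log10 p and 324 bp with each peak once. The 20 leaning sites named kept their sign and at least 50 points in the 155 values they had under the alternatives. A site had a value only where it was still a pair. The HDAC2-leaning sites named near gene ends had none with 50% covered, the summit inside or the higher −log10 p. All 20 were picked for extreme differences, so a fall below 50 points was unlikely. The FLI1 share of doubly high distal pairs was 41.6% when its summit had to lie within 250 bp of HDAC2's, also chosen after seeing the data. That share was not computed for the other corners. Depth is unknown, so absent peaks may be missed ones.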
